A study of Homo sapiens with 2 samples.

Results

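ANKRD1, IGFBP3, ARHGEF17 and AMOTL1 are genes used as readouts of the transcriptional coactivator YAP, and their mRNA levels were compared between A549 cells with and without silencing of p62/SQSTM1. They were taken by symbol from the probe sets to which the platform annotation gives exactly 1 gene, and every probe set of each gene is shown. This gave 5 probe sets of 16098, for 4 genes of 14884. The genes were singled out because they were lower in the siP62 array, so their differences describe these arrays and no test of them was possible. A549, an established line, derives from a human adenocarcinoma of the lung. Cells of the siCONTROL group received a control siRNA, and those of the siP62 group an siRNA that targets the mRNA of SQSTM1, whose protein p62 gathers ubiquitin-tagged cargo for autophagy. Total RNA was taken from both after 24 hours and read on 1 Affymetrix whole-transcript array per group, so no value has a replicate error. The sources used here give neither the sequence nor the number of the siRNAs.

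The Hippo pathway controls organ size and contact inhibition through a kinase cascade in which STK3 and STK4 activate the LATS kinases, which phosphorylate YAP and its relative TAZ and keep them out of the nucleus. Unphosphorylated YAP and TAZ enter the nucleus, bind TEAD transcription factors and raise the transcription of genes for matrix proteins, growth factors and cytoskeletal regulators. Angiomotins, which include AMOTL1 and AMOTL2, bind YAP at tight junctions and on actin, and are themselves transcribed in response to YAP, as a feedback. In lung epithelium YAP is known for responding to stretch and to cell density.

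TEAD factors bind the motif GGAATG, so the 250 bases before the start sites of the readout genes are shown, with each GGAATG in capitals. CCN2, the matricellular protein gene that is among the most used YAP readouts, is shown for comparison. The sequences are those of the gene's strand, 5′ to 3′, from RefSeq on GRCh38.p14. The table held ANKRD1 (chr10:90921088-90921337, minus strand), IGFBP3 (chr7:45921273-45921522, minus strand), AMOTL1 (chr11:94768106-94768355, plus strand) and CCN2 (chr6:131951373-131951622, minus strand). ARHGEF17 is named only.
ANKRD1: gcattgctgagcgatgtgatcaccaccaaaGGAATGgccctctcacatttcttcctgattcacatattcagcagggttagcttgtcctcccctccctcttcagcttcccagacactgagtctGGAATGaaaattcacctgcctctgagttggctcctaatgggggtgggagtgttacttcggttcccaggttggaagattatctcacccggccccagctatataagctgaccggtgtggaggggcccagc
IGFBP3: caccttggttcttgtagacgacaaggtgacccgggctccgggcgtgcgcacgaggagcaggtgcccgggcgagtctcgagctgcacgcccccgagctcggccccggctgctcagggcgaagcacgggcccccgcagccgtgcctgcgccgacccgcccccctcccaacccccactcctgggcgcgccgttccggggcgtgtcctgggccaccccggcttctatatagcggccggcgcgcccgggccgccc
AMOTL1: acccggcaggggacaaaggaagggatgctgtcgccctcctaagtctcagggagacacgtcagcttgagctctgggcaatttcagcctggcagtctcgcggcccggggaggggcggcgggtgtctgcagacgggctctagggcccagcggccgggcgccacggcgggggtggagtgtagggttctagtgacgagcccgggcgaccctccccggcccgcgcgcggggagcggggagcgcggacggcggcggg
CCN2: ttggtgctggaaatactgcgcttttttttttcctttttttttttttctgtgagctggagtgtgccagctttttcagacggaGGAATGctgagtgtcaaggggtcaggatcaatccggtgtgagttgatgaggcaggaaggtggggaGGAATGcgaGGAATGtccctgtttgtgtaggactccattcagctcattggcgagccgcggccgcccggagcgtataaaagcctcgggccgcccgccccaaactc

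The ANKRD1 window held GGAATG at 2 places, the first bases of which lie 220 and 128 bases before the start site. The CCN2 window held it at 3 places, at 169, 104 and 95 bases, and the IGFBP3 and AMOTL1 windows at 0 on either strand. Over both strands, 11.9% of the 35116 windows of the same length in the table held at least 1 copy, 0.94% at least 2 and 0.083% at least 3. AP-1 factors often bind beside TEAD, and a loose pattern for them, TGANTCA with any base at N, was searched as well. It was found in the ANKRD1 window and not in those of IGFBP3, AMOTL1 and CCN2, while 6.57% of all windows held it. The match in ANKRD1 was TGATTCA, with T at the centre where the usual AP-1 site has C or G. This match did not overlap a GGAATG. The match of letters is a description of these windows and leaves distant enhancers unread.

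ANKRD1, a cardiac and skeletal muscle ankyrin repeat protein that acts in the nucleus and at the sarcomere, had the largest difference of the readout genes. It read 6.83 (log2) under siCONTROL and 5.89 under siP62 (probe set 16716478). The siP62 value was thus the lower one and still lay above 5.35, the limit of the filter, which is the median over both arrays of all named probe sets. The difference of -0.94 on the log2 scale is a 1.92-fold lower level, which left 52.1% of the control value. To place it, genes that passed the filter in at least 1 array, 7896 in all, were divided into 20 bins of like mean level. The robust SD of the differences in the bin of ANKRD1 was 0.22, a spread over genes and not an error between replicates, and 1 of the other 394 genes of the bin had a difference as low. Of all genes above the filter, 28 others had one as low.

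IGFBP3, a secreted protein that binds insulin-like growth factors and prolongs their life in the circulation, read 6.87 (log2) under siCONTROL and 6.51 under siP62 (probe set 17057478). The siP62 value was again the lower, with a difference of -0.36 on the log2 scale, or 1.28-fold, against a robust SD of 0.22 over its bin. In that bin 18 other genes of 394 (4.57%) were as low. In either direction, 67 of the others were as far from 0. IGFBP3 was chosen for being low, so nothing is read from its place in the lower tail, where it did not lie apart from genes of like level.

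ARHGEF17, a guanine nucleotide exchange factor that loads small GTPases of the cytoskeleton with GTP, read 6.48 (log2) under siCONTROL and 6.13 under siP62 (probe set 16728802). The difference of -0.35 is a 1.27-fold lower level, and 25 of the other 394 genes of its bin (6.35%) were as low. This share of its bin was close to that of IGFBP3, and 61 of the others were as far from 0 in either direction.

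AMOTL1, the angiomotin that links YAP to junctions and actin, was read by 2 probe sets that went opposite ways. Probe set 16730268 read 7.58 (log2) under siCONTROL and 7.24 under siP62, a difference of -0.34 or 1.27-fold lower. In its bin 24 of the other 394 genes (6.09%) were as low, and 58 were as far from 0 in either direction. Probe set 16743414 read 3.98 under siCONTROL and 4.17 under siP62, a difference of 0.19 with the siP62 array higher. Both of its values lay below the filter limit, so it has no fold here, and the annotation does not say which part of the transcript or which strand it reads. The mean difference over both probe sets was -0.075 on the log2 scale. The 2 differences lay 0.53 apart. Among the 207 genes with 2 probe sets of which 1 passed the filter, the median gap was 0.27, 19.8% had a gap of at least 0.53 and 40.6% had differences of opposite sign. Among the 159 genes whose probe sets both passed, the median gap was 0.14 and 5.03% had a gap that wide. The direction of AMOTL1 therefore holds for 1 of its probe sets.

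**Figure D1:**
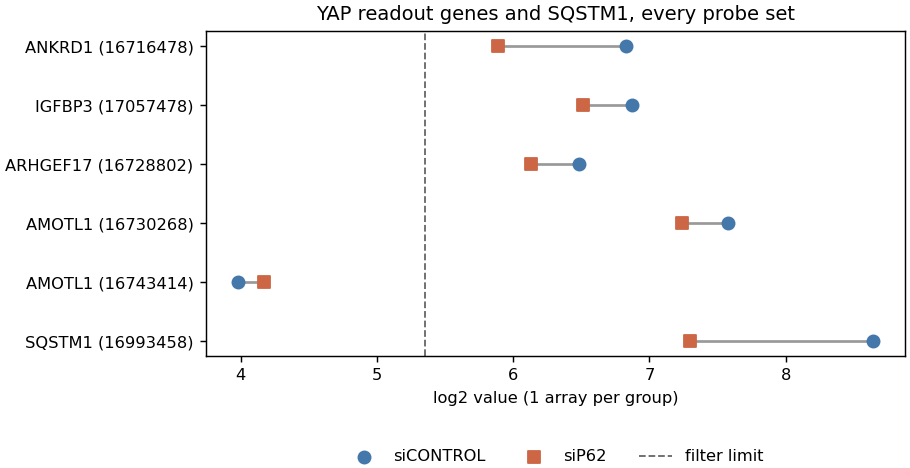
Log2 values of every probe set of the YAP readout genes and of SQSTM1 in the siCONTROL array (circles) and the siP62 array (squares), 1 array per group and no error bars; the dashed line is the filter limit of 5.35. The siP62 value is the lower one in each probe set but 16743414 of AMOTL1, which lies below the limit in both arrays.

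Of the readout genes, 4 of 4 passed the filter and 4 of 5 probe sets. By the probe set of the highest mean, 4 of 4 genes were lower in the siP62 array, as were 41.8% of all genes above the filter, while 0 of 4 were higher, against 55.4%. At 1.5-fold or more, 1 of 4 (ANKRD1) was lower, as were 1.6% of all genes above the filter, and 0 of 4 were 1.5-fold higher, against 2.08%. No readout gene was 2-fold lower, against 0.228% of all genes above the filter. The genes were chosen from this contrast, so nothing is read from these counts. The differences of IGFBP3, ARHGEF17 and AMOTL1 lay within 0.02 of each other on the log2 scale, while that of ANKRD1 was 0.58 below the next.

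As facts of the whole series, SQSTM1, the target of the siRNA, read 8.64 (log2) under siCONTROL and 7.30 under siP62, which left 39.5% of the control level. All genes above the filter had a median difference of 0.04 (log2) with a robust SD of 0.22, which ranged from 0.15 to 0.39 over the bins. Genes with a difference from 0.00 to below 0.04 count as equal or higher here and turn lower once that median is subtracted. The epithelial markers on the array, KRT18, KRT7, KRT8, KRT19 and EPCAM, were all above the filter, with differences of 0.02 to 0.21. Of the fibroblast, endothelial and leukocyte markers, 5 of 12 passed the filter, beside 53.1% of all named genes. Under siCONTROL and siP62, CD68 read 8.48 and 8.42, CD14 5.98 and 5.94, and THY1 5.63 and 5.73. LUM read 5.02 under siCONTROL, below the limit, and 5.49 under siP62. DCN, KDR, PECAM1, TIE1, VWF, LYZ and CSF1R lay below the limit in both arrays. CLDN5, a claudin of endothelium and other barriers, was the only one of these markers past 1.5-fold, from 4.84 to 5.47, with a siCONTROL value below the limit; its part in the results was not tested. Where 2 values of a gene are given in a row, the siCONTROL array comes first. Since ANKRD1 is a muscle gene, muscle markers were read as well, and 3 of 7 passed, with -0.05 for ANKRD2, -0.11 for ANKRD23 and 0.37 for DES, while NPPA, NPPB, TNNI3 and TTN lay below the limit. The mean log2 level of the 7 was 5.17 in both arrays. In bulk RNA, fewer cells with a transcript and less of it per cell cannot be told apart.

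**Figure D2:**
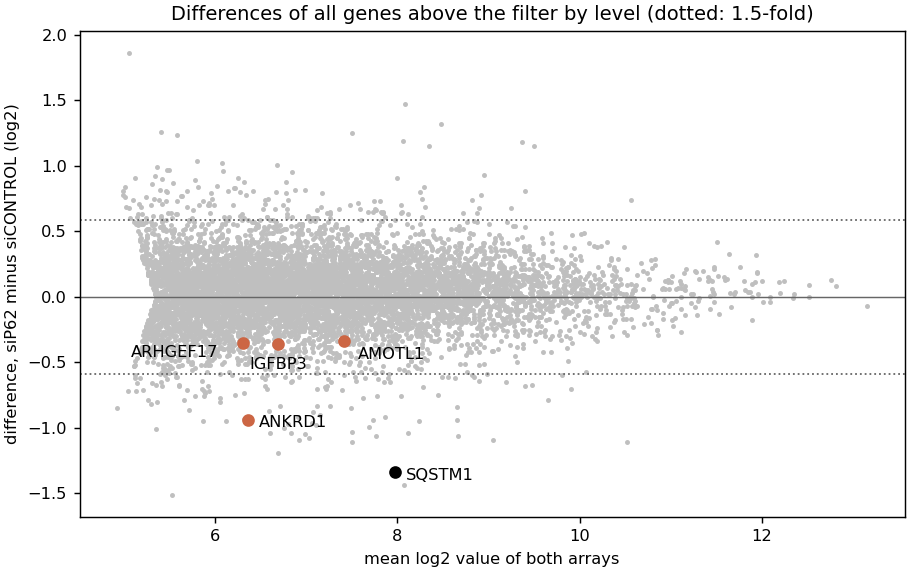
Difference of each gene above the filter (vertical axis, siP62 minus siCONTROL, log2) against its mean log2 value of both arrays (horizontal axis); each grey point is 1 of 7896 genes and dotted lines mark 1.5-fold. ANKRD1 at -0.94 lies beyond the lower line, whereas IGFBP3, ARHGEF17 and AMOTL1 at -0.36 to -0.34 lie inside the cloud.

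The other targets of YAP were found on both sides of 0. A core signature of 22 YAP targets had 12 genes on the array, all above the filter, of which 8 were lower, 3 higher and 1 equal, with a median difference of -0.13 beside 0.04 over all genes above the filter. This includes ANKRD1, IGFBP3 and ARHGEF17, which were chosen for being low. Over the other 9 genes, 5 were lower, 3 higher and 1 equal, with a median of -0.03. Once the median difference of all genes was subtracted, AMOTL2 joined the lower side and 9 of the 12 were lower. The remaining 10 genes of the signature, CCN1, LATS2 and F3 among them, are not named in the annotation and were not analysed here.

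Among the 9, DOCK5, an exchange factor of the GTPase Rac, was lowest. It read 9.74 (log2) under siCONTROL and 9.06 under siP62, a 1.60-fold lower level. Of the 9, DOCK5 was the only 1 past 1.5-fold, beside 1.6% lower and 2.08% higher among all genes above the filter. CCN2, whose window above holds the most GGAATG copies, was lower by less, with 8.82 under siCONTROL and 8.63 under siP62, a difference of -0.19. A further probe set of CCN2, at 2.88 and 2.70, was below the filter. AMOTL2, the angiomotin closest in use to AMOTL1 as a YAP readout, had 7.20 in both arrays. MYOF, a ferlin of membrane repair, differed by -0.15, FJX1 by -0.11 and CRIM1, a membrane protein that binds BMPs, by -0.03. FOXF2, a forkhead transcription factor, went the other way, from 7.24 under siCONTROL to 7.72 under siP62. CCDC80, a secreted matrix-associated protein, was higher by 0.31 and AXL, a receptor tyrosine kinase, by 0.20. The low values of ANKRD1 and DOCK5 thus stood beside YAP targets above the filter that were equal or higher.

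Of 23 other reported YAP targets, AMOTL1 included, 16 of the 17 on the array passed the filter, with 9 lower, 7 higher and a median of -0.045. None was 1.5-fold lower or higher, which for 16 genes is near the background of 1.6% and 2.08%, and of all genes above the filter 41.8% were lower. Without AMOTL1, 8 were lower and 7 higher, with a median of -0.04. FOSL1, a subunit of AP-1, was lowest, with 7.39 under siCONTROL and 6.97 under siP62. The growth factor FGF2 differed by -0.29, MYC and CAVIN2, a protein of caveolae, each by -0.22, and the cyclin CCND1 by -0.18. The EGF receptor ligand EREG differed by 0.30, GLI2, a transcription factor of the Hedgehog pathway, by 0.29, BIRC5, an inhibitor of apoptosis that acts in mitosis, by 0.19 and THBS1, a matrix glycoprotein, by 0.16.

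**Figure D3:**
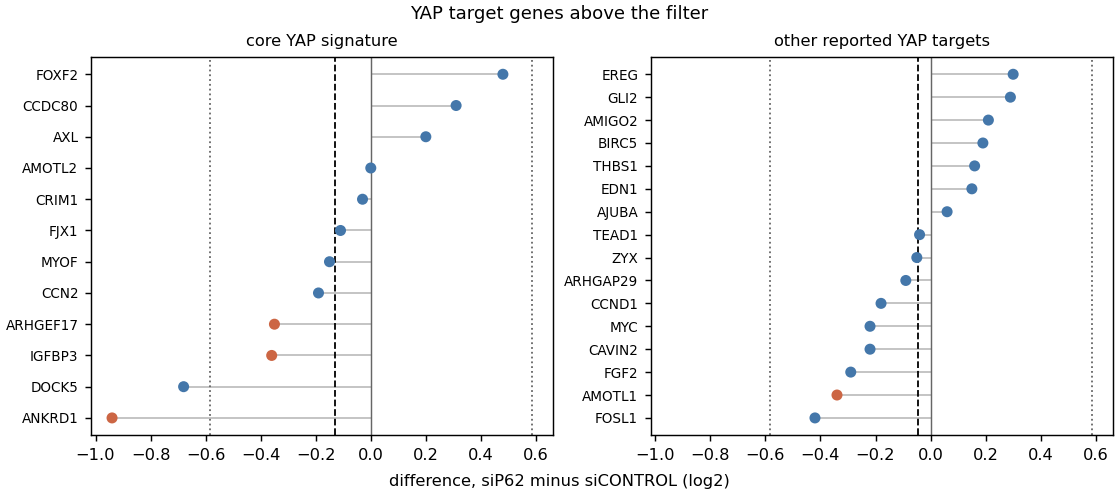
Differences (horizontal axis, siP62 minus siCONTROL, log2) of the genes above the filter in the core YAP signature (left, 12 genes) and among other reported YAP targets (right, 16 genes), 1 point per gene, with the readout genes in orange. The dashed line is the median of each list, -0.13 and -0.045, and dotted lines mark 1.5-fold, which ANKRD1 and DOCK5 exceed.

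Across all genes, those with and without GGAATG in the window had equal median differences. Of 6258 genes above the filter with a window in the table, the 5473 without a copy, the 785 with at least 1 and the 68 with at least 2 each had a median difference of 0.04, where the window with the most copies stood for a gene with several start sites. Lower values were found in 41.3%, 39.5% and 32.4% of them. In the core signature 9 of 12 genes had a window. Of these, 5 held a copy, namely ANKRD1 (-0.94), CCN2 (-0.19), AMOTL2 (0.00), AXL (0.20) and FOXF2 (0.48), whose differences ran over the whole range of the signature.

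Upstream, the genes of the Hippo cascade itself were found on both sides of 0. Of 29 kinases and scaffolds, 22 were named in the annotation and 17 passed the filter. Of the 17, 5 were lower, 11 higher and 1 equal, beside 41.8% lower and 55.4% higher among all genes above the filter. The median was 0.08, and none was 1.5-fold lower or higher. Beside 1.6% lower and 2.08% higher by that much among all genes above the filter, none of 17 is near the background and says nothing particular about this list. The kinase STK4 read 7.57 under siCONTROL and 7.32 under siP62. NF2, or merlin, which activates the cascade at the membrane, had 8.27 and 7.96, the lowest difference of the list at -0.31. SAV1, the scaffold of STK3 and STK4, was higher by 0.31 and FRMD6, a FERM domain protein upstream of the kinases, by 0.44. The LATS kinase adaptors MOB1A and MOB1B differed by 0.08 and -0.12, where MOB1B read 5.45 under siCONTROL and 5.33, below the limit, under siP62. STK3 lay below the filter in both arrays, and LATS1 and LATS2 are not named in the annotation and were not analysed here.

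YAP1, which encodes YAP, read 7.92 (log2) under siCONTROL and 7.85 under siP62. A further probe set of YAP1 had 5.00 and 5.10, below the filter. WWTR1, which encodes TAZ, read 6.67 under siCONTROL and 7.07 under siP62, a higher value by 0.40. Of the TEAD genes, TEAD1 differed by -0.04, TEAD2 by 0.35, TEAD3 by 0.39 and TEAD4 by -0.12. VGLL3, a cofactor that binds TEADs in place of YAP, was 1.56-fold lower, from 7.87 to 7.23. It was the only 1 of the 8 genes of this group above the filter that was past 1.5-fold. Among all genes above the filter 1.6% were lower and 2.08% higher by that much. The group was split into 4 lower and 4 higher, with a median of 0.035 as deposited and -0.005 once the median difference of all genes was subtracted. Transcript levels do not read the phosphorylation or location of YAP.

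The binders of AMOTL1 were also split. Of 9 angiomotins and binders above the filter, 4 were lower, 3 higher and 2 equal, with a median of 0.00. Without AMOTL1, 3 were lower, 3 higher and 2 equal. AMOT itself lay below the filter. ITCH, a ubiquitin ligase of angiomotins, read 9.56 under siCONTROL and 9.20 under siP62. RNF146, a ligase that removes tankyrase targets such as angiomotins, read 5.34 under siCONTROL, below the limit, and 5.49 under siP62. It passed the filter only through the siP62 array, so its place among the higher genes is uncertain. The polarity protein genes PATJ, PARD3, CRB3 and PARD6B differed by 0.07, 0.00, -0.24 and 0.21, and the tight junction scaffold TJP1 by -0.04.

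**Figure D4:**
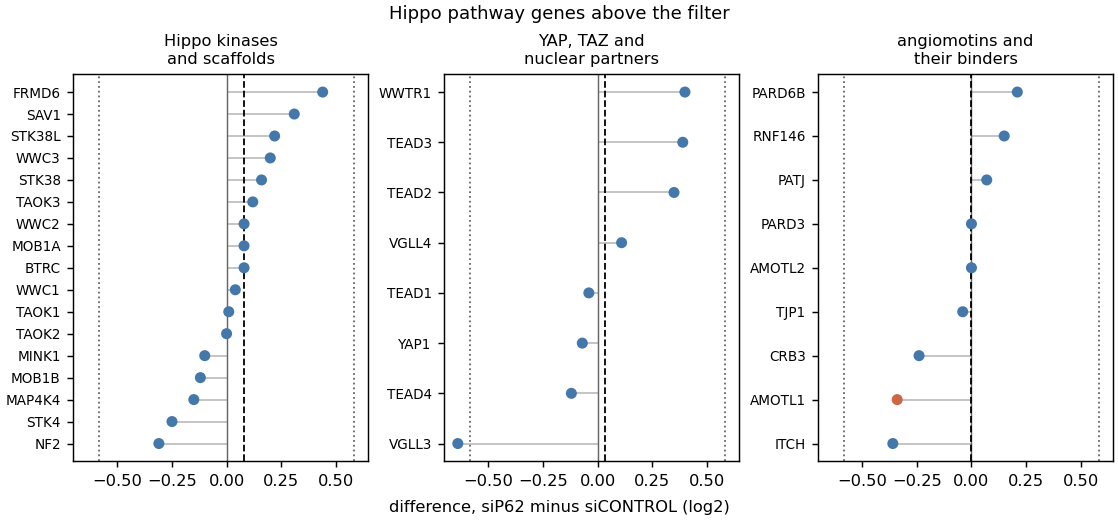
Differences (horizontal axis, siP62 minus siCONTROL, log2) of the genes above the filter among Hippo kinases and scaffolds, YAP, TAZ and their nuclear partners, and angiomotins and their binders, 1 point per gene, with AMOTL1 in orange. Dashed lines are the medians, 0.08, 0.035 and 0.00, and VGLL3 at -0.64 is the only gene past the dotted lines of 1.5-fold.

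Of 22 genes of the IGF axis, IGFBP3 included, 18 were named in the annotation and 16 passed the filter. The other 4, IGF2, IGFBP2, PAPPA and IGFALS, are not named there and were not analysed here. Of the 16, 7 were lower, 8 higher and 1 equal, with a median of 0.02, which turned to -0.02 after median subtraction. Over the 15 without IGFBP3, 6 were lower, 8 higher and 1 equal, with a median of 0.04, the same as over all genes above the filter. IGFBP3, chosen for being low, was the lowest of the 6 binding proteins above the filter, so nothing is read from that rank. IGFBP1 differed by 0.12, IGFBP4 by 0.10, IGFBP5 by 0.06, IGFBP6 by 0.26 and IGFBP7 by 0.00. Among the receptors, IGF2R, which clears IGF2 and carries lysosomal enzymes, read 8.94 under siCONTROL and 8.32 under siP62, a 1.54-fold lower level. IGF2R was the only 1 of the 16 genes past 1.5-fold, beside 1.6% lower and 2.08% higher among all genes above the filter. The insulin receptor gene INSR differed by -0.39, IGF1R by -0.17 and TMEM219, which encodes a receptor of IGFBP3, by -0.17. Of the adaptors, IRS1 differed by 0.09 and IRS2 by -0.21. STC1 and STC2, inhibitors of the proteases that cut IGF binding proteins, differed by 0.37 and 0.13, and HTRA1, a protease that cuts them, by -0.17.

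ARHGEF17, chosen for being low, was the lowest of the 15 ARHGEF genes above the filter, so nothing is read from that rank. Of the 15, 5 were lower and 10 higher, with a median of 0.09. Without ARHGEF17, 4 were lower and 10 higher, beside 41.8% and 55.4% of all genes above the filter. ARHGEF28 was next, with 8.51 under siCONTROL and 8.21 under siP62, and ARHGEF26 was highest, from 6.19 to 6.73. ARHGEF1, ARHGEF11 and ARHGEF12, which act downstream of G protein-coupled receptors, differed by 0.23, 0.19 and 0.07. Targets and regulators of SRF and MRTF, which actin controls in parallel to YAP, were split into 5 lower and 6 higher of 11, with a median of 0.08. TAGLN, a smooth muscle actin-binding protein, differed by 0.51 and FHL2, a LIM domain cofactor, by -0.15.

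ANKRD1, chosen for being low, was the lowest of the 26 ANKRD genes above the filter, so nothing is read from that rank. Of these 17 were lower, 8 higher and 1 equal, with a median of -0.09, and without ANKRD1 it was 16 lower and 8 higher with a median of -0.07. Of all genes above the filter 41.8% were lower and 55.4% higher, with a median of 0.04. Without ANKRD1, 2 of 25 were at least 1.5-fold lower and 1 higher, beside 1.6% and 2.08% of all genes above the filter. The ANKRD genes share the ankyrin repeat and a name and are not a pathway. ANKRD18A read 6.45 under siCONTROL and 5.65 under siP62, a 1.74-fold lower level, and ANKRD12, a nuclear cofactor, had 6.59 and 5.84, a 1.68-fold lower level. ANKRD42 went the other way, from 4.59 to 5.43, but its siCONTROL value did not reach the filter limit, which makes the size uncertain. ANKRD2 and ANKRD23, the genes most closely related to ANKRD1, differed by -0.05 and -0.11.

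**Figure D5:**
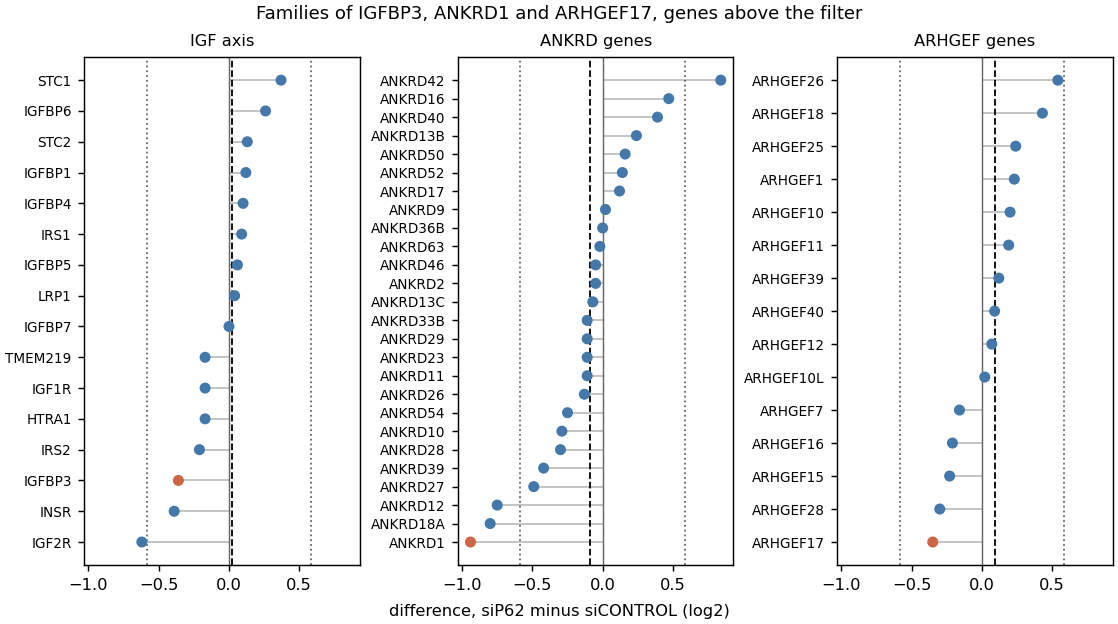
Differences (horizontal axis, siP62 minus siCONTROL, log2) of the genes above the filter in the IGF axis (16), the ANKRD genes (26) and the ARHGEF genes (15), 1 point per gene, with IGFBP3, ANKRD1 and ARHGEF17 in orange. Dashed lines are the medians, 0.02, -0.09 and 0.09, and dotted lines mark 1.5-fold.

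For each readout gene the genes with the most similar pair of values were found by Euclidean distance over its 2 log2 values, among 14883 other genes. With 2 arrays this likeness says only that level and difference were alike. ADGRG2, an adhesion G protein-coupled receptor, read 6.84 under siCONTROL and 5.89 under siP62, at a distance of 0.01 from ANKRD1. BCL2A1, an inhibitor of apoptosis, had 6.78 and 5.85, and MIR596 was the third at a distance of 0.16. For IGFBP3 they were JAG2, a Notch ligand, NICOL1 and CCDC28A, at distances of 0.041 to 0.05. For ARHGEF17 they were GPR89A, RANBP6 and ZP3, and for AMOTL1 ASPH, POM121 and FZD3, a Wnt receptor, all within 0.022. The third nearest gene thus lay farther from ANKRD1 than from the other readout genes, but the nearest did not.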

How the data were processed

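RNA of A549 cells was read on 2 arrays, siCONTROL and siP62. The authors deposited log2 values of 48226 probe sets for each array. The submitters' processing notes list Transcriptome Analysis Console (4.0.2.15) and RMA, a method that usually corrects background, quantile-normalizes and summarises probes, so a shift of all genes would not be seen. The values carried no detection calls, and the sources used here do not name the genome build of the probe sets. The number of arrays limits precision. The platform annotation gave 1 symbol for 16098 probe sets, several for 0, and left 32128 unnamed; all 16098 gene identifiers matched the RefSeq table of GRCh38.p14.

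The probe set with the highest mean stood for a gene. Genes were kept where the higher value reached 5.35. Differences are siP62 minus siCONTROL (log2), and called means past 1.5-fold. With 1 array per group there is no p-value. The filter, the counting of calls and the robust SD were tested on simulated data. The readout genes and the 15 gene lists were chosen with earlier results of these data known. The values of 1 of these lists are not reported here. Named are all probe sets of the readout genes, SQSTM1, and list members above the filter by role. The 3 genes nearest to each readout gene are named too, as are all list members above the filter and past 1.5-fold. List members named as lying below the filter are given for completeness. Python 3.11.15, pandas 2.3.3 and numpy 2.4.6 were used, with statsmodels 0.14.6 for loess (span 0.3). Alternatives were median and loess centring, quantile normalization, no filter, a filter at the 70th percentile (6.67) and the mean over probe sets.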

Additional observations from a re-analysis of the deposited data

How the results depend on the processing

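Each difference of a readout gene was larger in size than 0.04, the median subtracted, so median centring could not turn a sign. The differences kept their sign under 3 settings, median centring, loess centring and quantile normalization. They moved by less than the spread over genes of like level, or of all genes above the filter for AMOTL1 probe set 16743414. Over these 3 settings ANKRD1 ran from -0.98 to -0.965, IGFBP3 from -0.40 to -0.395, ARHGEF17 from -0.39 to -0.375, AMOTL1 from -0.39 to -0.38 by its probe set of higher mean and from 0.15 to 0.23 by the other. With the mean over both probe sets, an alternative chosen after seeing the data, AMOTL1 moved to -0.075, since they differ in sign. The median of the core YAP signature stayed between -0.17 and -0.11 over its 6 alternatives. It includes ANKRD1, IGFBP3 and ARHGEF17, which were chosen for being low. Without them the median was -0.03 as deposited, and the alternatives were not run. Of the 7896 genes above the filter, 126 were at least 1.5-fold lower and 164 higher. Without a filter, over 14884 genes, these were 318 and 305. At the stricter 70th percentile filter, over fewer genes, they were 82 and 85. These counts are over unlike numbers of genes, so they are not compared. Median centring gave 154 lower and 127 higher, loess centring 154 and 130, and quantile normalization 144 and 141, so the split depends on the centring. No paired analysis was possible because each group held 1 array. Signal over background could not be judged without detection calls, which limits the AMOTL1 probe set at about 4 the most.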
